A study of Mus musculus with 20 samples.

Results

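The 165 microarray probes described here were raised by tamoxifen on days 1 and 2 in mouse embryonic stem (ES) cells that carry a tamoxifen-controlled Zscan4 protein. On day 4 their levels in cells kept in tamoxifen exceeded those in cells withdrawn from it by less than 0.3 on the log2 scale. They are 165 of the 42006 distinct probes on the arrays. The members were selected on measured values, the scanner's processed signals as log2 of sample over reference, centred on the median of each array. A probe entered when it was well above background on every array of the tamoxifen groups of days 1 and 2, when tamoxifen exceeded no tamoxifen by at least 0.6 on day 1 and again on day 2, and when the day 4 difference stayed under 0.3. Another 303 probes met the conditions of days 1 and 2 but differed by 0.3 or more on day 4, and they serve here as the comparison list. The values of days 1, 2 and 4 that made this choice are given as description, without a test. Tests compare only groups the selection did not use, on 8 arrays. These are day 0, the withdrawn cells of days 2 and 3 and the continued cells of day 3. The spread behind the p-values was estimated over all 20 arrays, including those that made the choice.

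The cells were 1 clone, ES-ZERT #18, of the V6.5 ES line, and all groups carry the same 2 constructs. One drives a fusion of Zscan4 and ERT2 from the ubiquitous CAG promoter, and the other is the PL452 neomycin selection plasmid. Each of 10 groups has 2 arrays: day 0; no tamoxifen for 1 or 2 days (Tmx-, Tmx--); 200 nM tamoxifen for 1, 2, 3 or 4 days (Tmx+ to Tmx++++, called continued); and tamoxifen on day 1 only, then withdrawn, sampled on days 2, 3 and 4 (Tmx+-, Tmx+--, Tmx+---). Sample RNA was in the green channel and a common reference, pooled mouse cell line RNA mixed with ES cell RNA, was in the red channel of each array. There were no untreated cells on days 3 and 4, so a rise from day 0 to those days cannot be told apart from time in culture. Whether the 2 arrays of a group hold RNA of different cultures is not stated in the labels, and the p-values below rest on array-to-array spread alone, possibly a technical one.

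Zscan4 proteins carry a SCAN domain and zinc fingers, and are known in early mouse embryos and in a small, changing share of ES cells, where they are linked to telomere maintenance. ERT2 is a mutated ligand-binding domain of the oestrogen receptor. It holds its fusion partner inactive until tamoxifen binds, and removal of the drug returns the partner to the inactive state. Genes of such a system can therefore be set into those that need the active protein all the time and those whose changed level outlasts it. The probes have no gene name, accession or position in the files, none of the 42006 identifiers matched the RefSeq gene table, and none of the 165 members had a 30-base match in the RefSeq promoter windows (GRCm38.p6). Members are therefore identified by probe name and sequence, marker genes of ES cells could not be looked up, and no statement on gene function is made.

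The sequences below belong to the members with the largest day 1 difference and to those highest above day 0 after withdrawal on day 3, with 4 pairs of overlapping probes compared later. Each is 60 bases, 5′ to 3′, and capitals mark the longest stretch shared with another probe of the array that is shown here.
Z00045886-1: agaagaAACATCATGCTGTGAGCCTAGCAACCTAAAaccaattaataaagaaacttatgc
Z00024130-1: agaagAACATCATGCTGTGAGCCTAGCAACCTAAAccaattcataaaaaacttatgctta
Z00054591-1: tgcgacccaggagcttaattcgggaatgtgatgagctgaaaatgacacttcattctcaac
Z00076515-1: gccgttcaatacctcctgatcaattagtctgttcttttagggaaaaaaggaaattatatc
Z00055449-1: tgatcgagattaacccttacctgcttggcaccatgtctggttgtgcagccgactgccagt
Z00033292-1: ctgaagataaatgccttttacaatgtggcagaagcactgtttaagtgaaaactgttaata
Z00002681-1: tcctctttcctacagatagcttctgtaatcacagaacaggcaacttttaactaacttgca
Z00067688-1: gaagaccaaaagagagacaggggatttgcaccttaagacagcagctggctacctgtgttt
Z00033229-1: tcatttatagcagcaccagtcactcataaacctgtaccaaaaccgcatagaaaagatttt
Z00054177-1: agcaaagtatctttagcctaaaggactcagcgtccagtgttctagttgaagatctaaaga
Z00024929-1: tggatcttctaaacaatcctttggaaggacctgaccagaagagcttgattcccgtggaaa
Z00022415-1: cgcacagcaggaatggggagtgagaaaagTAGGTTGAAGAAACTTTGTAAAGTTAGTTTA
Z00070448-1: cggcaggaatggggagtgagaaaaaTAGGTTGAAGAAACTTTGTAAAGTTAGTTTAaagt
Z00039729-1: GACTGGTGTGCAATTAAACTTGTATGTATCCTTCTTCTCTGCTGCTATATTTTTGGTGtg
Z00074957-1: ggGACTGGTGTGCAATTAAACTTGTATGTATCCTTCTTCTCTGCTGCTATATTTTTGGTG
Z00040364-1: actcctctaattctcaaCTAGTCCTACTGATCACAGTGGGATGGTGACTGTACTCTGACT
Z00075233-1: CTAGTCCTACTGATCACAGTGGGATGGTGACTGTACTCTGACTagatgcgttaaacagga

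From here on, levels are log2 of sample over reference after background correction (normexp, offset 50) and loess normalisation, a scale that understates the differences of dim probes. Replicate arrays correlated at 0.985 to 0.995, between 26199 and 30069 probes were well above background per array, and no member spot was saturated. All 165 members were among the 29414 probes tested. Relative to each array's own median, the members' median log2 signal in the reference channel stayed within 0.50 to 0.66 over the 20 arrays. In the sample channel it ran from 0.00 to 1.13 on the same relative scale. The groups lie on 5 slides, each group on a single slide, so slide and group cannot be told apart except between groups that share a slide. Continued and withdrawn cells of the same day share one on days 2, 3 and 4. Tamoxifen and untreated cells of days 1 and 2 do not, so the rises that chose the members, and each tamoxifen group's difference from day 0, are differences between slides.

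By their choice, the members were higher with tamoxifen on days 1 and 2. In the selection's own values the day 1 difference had a median of 0.88 (0.61 to 2.67) and the day 2 difference one of 0.95 (0.60 to 3.06). The day 4 difference between continued and withdrawn cells had a median of 0.17 and ran from -0.82 to 0.30. On the normalised scale the same medians were 0.51, 0.66 and 0.12. Z00074605-1, at 0.606, was the member closest to the day 1 limit and Z00039681-1, at 0.5996, lay just outside. For day 2 Z00016886-1 was inside at 0.602 and Z00075281-1 outside at 0.597, and for day 4 Z00003942-1 was inside at 0.299 and Z00027497-1 outside at 0.3003.

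The day 1 difference had 2 sides, because untreated cells also moved away from day 0. The members' median change from day 0 was 0.22 with tamoxifen and -0.22 without it, and on day 2 the untreated median was back at 0.01. In the processed signals the day 1 medians were 0.45 and -0.47, and with the 6 outlying backgrounds of 1 untreated array left in the untreated median was -0.09. Over all probes tested, the day 1 medians were both -0.01. The quartiles of the members' day 1 change were 0.03 and 0.50 with tamoxifen and -0.47 and -0.01 without. With tamoxifen, both arrays lay above both day 0 arrays in 116 members and below in 31 (34.3% and 36.9% of probes tested). Without it they lay above in 23 and below in 103 (29.7% and 34.1%), and on day 2 above in 43 and below in 43 (23.7% and 26.8%). For 60 members both tamoxifen arrays lay above both day 0 arrays while the untreated arrays were not all below (32.2% of probes tested had this pattern), and 56 had tamoxifen above and untreated below day 0 (2.10%). A further 47 had untreated cells below day 0 and tamoxifen cells not above it (32.0%), and 2 had neither (33.7%). In the comparison list of 303 the counts were 158, 90, 47 and 8. This split is part of the values that chose the members and is given without a test.

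Z00045886-1 and Z00024130-1 had the largest day 1 differences in the processed signals (2.42 and 2.67), and both are well above background on all arrays. On the normalised scale their differences were 1.28 and 1.20, and 2 members there exceeded both, Z00074633-1 with 1.60 and Z00004988-1 with 1.32, named after their values were seen. On the 2 day 0 arrays Z00045886-1 was at 1.05 and 1.08, on the untreated day 1 arrays at 0.11 and 0.02, and on the tamoxifen day 1 arrays at 1.42 and 1.26. Its untreated arrays were the lowest of the day, and all tamoxifen arrays lay above day 0. Z00024130-1, which shares 30 bases with it, was at 0.95 and 0.97 on day 0, at -0.05 and 0.05 untreated, and at 1.15 and 1.24 with tamoxifen. Z00054177-1 was at 0.63 on both day 0 arrays, at 0.31 and 0.32 untreated, and at 1.26 and 1.23 with tamoxifen. In 3 of the 6 members with the largest day 1 differences in the processed signals, at least 1 group was not well above background on either array. The first of them, Z00033229-1, was not well above background on any array of day 0 or of the untreated days, its day 1 difference of 2.12 in the processed signals was 0.38 on the normalised scale, and its tamoxifen arrays of day 1 were at 0.52 and 0.37. Z00024929-1 had a day 1 difference of 1.71 in the processed signals and one of 0.17 on the normalised scale, and it too was not well above background on either day 0 array. The third, Z00022415-1, was not well above background on the untreated arrays of day 1, and its 1.96 in the processed signals was 0.30 on the normalised scale.

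After withdrawal most members were above day 0. On day 2, after 1 day without tamoxifen, 143 of 165 were higher than on day 0 and none was lower (limma, Benjamini-Hochberg adjusted p under 0.05 over all probes tested), where 16.1% of all probes tested were higher and 15.8% lower. On day 3, after 2 days without tamoxifen, 146 were higher and none lower (20.5% and 19.2% of all). In continued cells on day 3, 150 were higher and none lower (23.6% and 20.6%). The median member stood 0.60 above day 0 in withdrawn cells on day 2, 0.63 on day 3, and 0.77 in continued cells on day 3, and the medians of all probes tested were 0.01, 0.00 and 0.01. These 3 differences share the day 0 arrays. Without regard to the fit, both withdrawn arrays lay above both day 0 arrays in 156 members on day 2 and in 152 on day 3 (33.8% and 35.9% of probes tested), and below in 1 each (32% and 34.9%). Their spread was wide: on day 3 after withdrawal the quartiles were 0.33 and 1.08 and the range -0.14 to 2.52. A difference of at least 2-fold was seen in 40 members on day 2 withdrawn, 47 on day 3 withdrawn and 56 on day 3 continued (0.581%, 1.01% and 1.32% of probes tested). The sizes depend on the scale: in the processed signals the medians were 0.97, 1.005 and 1.18, and 79, 83 and 100 members were at least 2-fold above day 0 (2.54%, 3.84% and 4.78% of probes tested). In all 3 differences 133 members were called higher (10.3% of probes tested), and in none of them 9 (70.4%). In the comparison list 284, 267 and 283 of 303 were higher and 0, 3 and 1 lower.

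Members of all 4 day 1 patterns were among those called higher after withdrawal. Of the 60 with tamoxifen above day 0 only, 53 were called higher than day 0 on day 2 withdrawn and 50 on day 3 withdrawn, with a median day 3 change of 0.58. Of all probes tested with that pattern, 28.2% and 29.1% were called. Of the 47 whose untreated cells fell below day 0 while tamoxifen cells were not above it, 35 and 38 were called (12.5% and 20.7% of all such probes), with a median of 0.57, and for those called the rise above day 0 was not yet seen on both day 1 arrays. Of the 56 with both, 53 and 56 were called (64.1% and 63.6%), with a median of 0.90, and of the 2 with neither, 2 and 2 (5.08% and 9.56%). The day 1 patterns and these changes share the day 0 arrays.

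The members highest above day 0 on day 3 after withdrawal are described here by their starting level, an order chosen after the values were seen. The pair Z00045886-1 and Z00024130-1 began above the reference. Z00045886-1 stood at 2.52 and 2.37 on day 2 withdrawn and at 3.52 and 3.66 on day 3 withdrawn, both above its day 0 arrays by more than their spread. Its day 3 withdrawn difference from day 0 was 2.52 (SE 0.079, adjusted p = 2.9e-13), or 5.75-fold. Z00024130-1 was at 2.30 and 2.00 on day 2 withdrawn and at 3.34 and 3.39 on day 3 withdrawn, a difference from day 0 of 2.41 (SE 0.10, adjusted p = 1.3e-11). Z00067688-1, also above the reference at the start with 0.54 and 0.64, reached 1.88 and 1.64 on day 2 withdrawn and 2.69 and 2.68 on day 3 withdrawn. The arrays of these 3 probes did not overlap between day 0, day 2 and day 3.

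The others of these members started below or near the reference. Z00054591-1 was at -1.14 and -1.09 on day 0, at 0.30 and 0.32 on day 2 withdrawn and at 1.27 and 1.24 on day 3 withdrawn, a rise of 2.36 (SE 0.084, adjusted p = 1.5e-12). Its untreated arrays stayed at -1.07 and -1.05 on day 1 and at -0.96 and -1.15 on day 2, close to day 0. Z00055449-1 began far below the reference, at -3.68 and -3.80, and was at -2.11 and -2.20 on day 2 withdrawn and at -1.59 and -1.53 on day 3 withdrawn. It rose by 2.18 (adjusted p = 5.7e-14) and was still below the reference. Z00033292-1 went from -2.27 and -2.10 on day 0 to -0.06 and -0.01 on day 3 withdrawn, after falling to -3.16 and -2.75 in untreated cells on day 1. Z00002681-1 went from -2.05 and -1.84 to 0.12 and 0.23, with untreated day 1 arrays at -2.49 and -2.56. Z00076515-1 went from 0.00 and 0.25 to 2.36 and 2.42, with untreated day 1 arrays at -1.05 and -0.83. In these last 3 the untreated arrays of day 1 were the lowest of all 20.

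Among the 165 members, 13 were more than 1 above the reference on both day 0 arrays (7.88%, against 6.25% of all probes tested) and 36 more than 1 below it (21.8%, against 12% of all). In the comparison list of 303, 27 were above (8.91%) and 92 below (30.4%) by the same limits, so a low start was more frequent there. The members' probes had a median GC content of 41.7%, against 40% in the comparison list and 45% over all probes tested. The motif AATAAA, the common polyadenylation signal, was searched as written and on the other strand, where it reads TTTATT. It was found as written in 12 of 165 probes (7.27%, against 7.50% of all probes tested) and on the other strand in 4 (2.42%, against 3.06%).

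None of the lowest 4 members on day 3 after withdrawal passed the test against day 0. Z00070973-1 was at 0.01 and 0.14 on day 0, at 0.49 and 0.52 on day 2 withdrawn, and at -0.03 and 0.04 on day 3 withdrawn. It was higher than day 0 on day 2 (0.43, SE 0.056, adjusted p = 1.3e-05) and differed by -0.08 on day 3 (adjusted p = 0.31), when its arrays overlapped those of day 0. Z00024984-1 was at 0.84 and 0.83 on day 0, at 0.11 and 0.13 untreated on day 1 and at 0.39 and 0.43 with tamoxifen. This probe met the selection because its untreated arrays were lower still, and on day 3 withdrawn it was at 0.63 and 0.74, a difference from day 0 of -0.14 (adjusted p = 0.090), and in the sample channel alone it was lower by that comparison, at -0.19 (adjusted p = 0.014). Z00027043-1 differed from day 0 by 0.02 on day 2 withdrawn and by -0.02 on day 3 withdrawn (SE 0.10 for each), and Z00043655-1, not well above background on either day 0 array, differed by -0.02 (SE 0.072), which became 0.22 (adjusted p = 0.012) in the sample channel alone and -0.26 (adjusted p = 0.041) with median centring in place of loess, so its direction is not settled.

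For 11 members the probe was not well above background on either day 0 array (6.67%, against 6.43% of all probes tested), so day 0 gives only a bound. Of these, 7 were called higher on day 3 after withdrawal. Both conditions were thus met by 4.24% of the members, against 0.935% of all probes tested. Among all probes tested, 1891 were as dim on day 0, and 275 of them were called higher. The bounds of the 7 members, from mean log2 signals of the sample channel after loess and between-array scaling, against the higher of the probe's own day 0 signal and the lowest signal well above background, ran from at least 1.12-fold to at least 1.44-fold. The highest was Z00033229-1, with 0.03 and 0.15 on day 0, 0.53 and 0.55 on day 2 withdrawn and 0.70 and 0.64 on day 3 withdrawn. The selection asked for signal above background in tamoxifen groups only, which favours a rise from day 0 in these 11. Their calls are therefore description, though they are part of the counts above. A separate fit took only the 24628 probes well above background on all 20 arrays, 133 members among them. There 123 of the 133 were called higher on day 2 withdrawn. On day 3, 125 were called in withdrawn and 128 in continued cells. The share of all 24628 probes called in that fit is not given here, so these counts have no background beside them. These bounds compare the sample channel alone between arrays. They are open to differences between slides, as day 0 and day 3 lie on different ones. No array had its dyes swapped.

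The arrays of day 3, which the selection did not use, allow a test of continued against withdrawn tamoxifen. Of the 165 members, 3 were higher in continued cells and none lower at an adjusted p under 0.05 (limma), where 0.153% of all probes tested were higher and 0.367% lower. In the comparison list 32 of 303 were higher and none lower. The members' differences were small and mostly of the same sign: the median was 0.09, between 0.19 for the comparison list and 0.01 for all probes tested, and 139 of 165 (84.2%) lay above 0, against 287 of 303 and 55.1% of all probes. In the processed signals the members' median was 0.17, against 0.27 for the comparison list and 0.04 for all probes tested. It was 0.14 in the authors' value table, which lists 109 of the members. For the 75 probes chosen by the same limits on the normalised scale it was 0.15. Both continued arrays were above both withdrawn arrays in 90 members and below in 6 (26.6% and 19.3% of probes tested), and in 255 and 5 of the comparison list. The members' label as independent of continued tamoxifen restates the day 4 limit that chose them and does not mean equal levels on day 3. On the normalised scale their day 4 difference ran up to 0.43, and 75 probes met all limits of the selection on that scale. The median SE of a member's day 3 difference was 0.075. The upper 95% limit of the difference was under 0.3 in 115 members (69.7%), 94 of the comparison list (31.0%) and 92.4% of all probes. Its lower limit was above 0 in 43 of 165 members, 188 of 303 comparison probes and 1503 of all 29414 probes tested. These limits are without adjustment for the number of probes. In the members that were not called, a missed threshold does not show equal levels.

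The 3 called members were Z00045886-1, Z00016230-1 and Z00049229-1, and they followed different courses. Z00045886-1 was at 4.05 and 4.01 in continued and at 3.52 and 3.66 in withdrawn cells on day 3, a difference of 0.44 (95% limits 0.28 and 0.61, adjusted p = 0.014), with both schedules far above day 0. Its overlapping partner Z00024130-1 was at 3.79 and 3.65 against 3.34 and 3.39, which is 0.35 higher and missed the threshold (95% limits 0.13 and 0.57, adjusted p = 0.19). Z00016230-1 was at -0.63 and -0.68 against -0.96 and -0.997, a difference of 0.32 (0.20 to 0.44, adjusted p = 0.011), having started at -1.70 and -1.74 on day 0. Z00049229-1 was at -0.63 and -0.66 against -0.95 and -0.96, a difference of 0.31 (0.17 to 0.44, adjusted p = 0.038). This probe had been highest on day 1 with tamoxifen, at -0.49 and -0.34, and in withdrawn cells was falling back toward its day 0 arrays of -1.21 and -1.12. None of the 3 passed without the first continued array of day 3 or without the first withdrawn array. Z00016230-1 alone passed without the second continued array, and of the 3 Z00045886-1 alone passed without the second withdrawn array, when 2 members passed in all. No member passed with the processed signals, or with 6 outlying background spots of 1 untreated day 1 array left in, which moved the adjusted p but not the day 3 differences of the 3 probes. Z00049229-1 also missed the threshold without background correction (adjusted p = 0.067), with median centring (0.13), without the filter on dim probes (0.064) and in the authors' value table (0.20). Z00045886-1 also missed it with a normexp offset of 16 (0.25) and in the authors' value table, where the difference was 0.18 (adjusted p = 0.79).

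The day 3 difference was on the whole larger where the day 4 difference was larger. Here the day 4 difference is that of the processed signals and the day 3 difference is on the normalised scale, so 2 scales are compared. Among members with a day 4 difference below 0 (32 members, values that chose the list) the median day 3 difference was 0.05 and 24 were above 0. In the 26 members between 0 and 0.1 it was 0.09, in the 41 between 0.1 and 0.2 it was 0.07, and in the 66 between 0.2 and 0.3 it was 0.11. Beyond the limit the medians were 0.15 for 78 probes between 0.3 and 0.4, 0.18 for 118 between 0.4 and 0.6, and 0.24 for 107 at 0.6 or more. The medians on either side of the limit were thus 0.11 and 0.15. Over the 468 raised probes the 2 differences correlated at Pearson's r = 0.479 (Spearman's rho 0.508) and over the 165 members at 0.316 (0.264). This describes correlation across probes, which are not independent replicates, and the days share no array or slide.

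Between days 2 and 3 without tamoxifen the members moved apart. From the day 2 to the day 3 withdrawn cells 45 members rose further and 32 fell (13.7% and 11.7% of all probes tested), and 88 did not pass in either direction, with a median change of 0.06. In the comparison list 79 rose and 77 fell, of 303. Of the 45, 38 were called above day 0 at both times. Of the 32 that fell, 25 were still called above day 0 on day 3 and 7 were not. The count of 32 became 16 without the first withdrawn array of day 2 and 16 without the second withdrawn array of day 3, so its size rests on these arrays. The 2 groups lie on different slides scanned in different sessions, and slide and day cannot be told apart.

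The largest further rises were in the pair described above, Z00024130-1 with 1.21 (adjusted p = 5.3e-07) and Z00045886-1 with 1.14 (adjusted p = 6.1e-08), then Z00076515-1 with 1.02. At the other end, Z00036275-1, chosen after its values were seen, was at 0.31 and 0.18 on day 0, at 1.30 and 1.27 on day 2 withdrawn and at 0.31 and 0.32 on day 3 withdrawn. It fell by 0.97 (adjusted p = 3.4e-08) to its day 0 level, and the continued cells of day 3 were at 0.41 and 0.47. Z00001961-1, chosen in the same way, was at 0.67 and 0.55 on day 0, 1.66 and 1.65 on day 2 withdrawn and 0.98 and 0.81 on day 3 withdrawn, and at 1.01 and 0.95 with tamoxifen throughout. Their continued arrays of day 2 had been at 1.24 and 1.22 for Z00036275-1 and at 1.68 and 1.59 for Z00001961-1, so both members were lower on day 3 than on day 2 with and without the drug.

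On day 2 the continued and withdrawn cells differed by a median of 0.03 over the members, within a range of -0.19 to 0.24, and by the same median of 0.03 over the comparison list. The continued day 2 arrays were used by the selection, so this is a description. On day 4 the members' median change from day 0 was 0.61 in withdrawn and 0.71 in continued cells, with quartiles of 0.20 and 1.255 and of 0.29 and 1.41. The comparison list stood at 0.75 on days 2 and 3 in withdrawn cells and at 0.48 on day 4, against 0.91 in continued cells on day 4, a gap that the choice of the lists used. Both withdrawn arrays were above both day 0 arrays in 135 members and below in 10 (42.9% and 33.4% of probes tested), and the continued arrays in 144 and 8 (43.6% and 34.6%). The selection set no lower bound on the day 4 difference, and 32 members were higher in withdrawn than in continued cells by its values, 4 of them by more than 0.3. The most extreme was Z00017554-1, at -0.91 and -0.92 on day 0. It was at 0.19 and 0.16, 0.29 and 0.20, and 0.78 and 0.79 in withdrawn cells on days 2, 3 and 4, against -0.02 and 0.08 on day 3 and 0.08 and -0.08 on day 4 in continued cells. On the unused day 3 arrays its difference was -0.21 (adjusted p = 0.22).

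Some probes share sequence and may measure the same or closely related transcripts, which was not tested. Among the 165 members, 3 pairs share a stretch of at least 20 bases on the same strand: Z00024130-1 with Z00045886-1 (30 bases), Z00039729-1 with Z00074957-1 (58) and Z00040364-1 with Z00075233-1 (43). Within pairs the values were close: the day 3 withdrawn change from day 0 was 0.58 and 0.67 for the second pair and 0.95 and 1.08 for the third. Since they share sequence, the members of a pair cannot be counted as independent measurements. Another 7 members share such a stretch with 8 probes outside the list. Where only 22 bases were shared, the partners' day 2 differences in the processed signals were less close. They were 0.85 and 0.04 for Z00068092-1 and Z00005005-1, and 0.74 and 0.25 for Z00027043-1 and Z00049863-1. Z00009904-1 and Z00074245-1 share 50 bases and stood 1.03 and 1.03 above day 0 on day 3 withdrawn, but the partner's day 1 difference of 0.547 left it out. Z00022415-1 and Z00070448-1, which share the 31 bases in capitals above, fell on different sides of the day 4 limit, at -0.03 and 0.34. On day 3 Z00022415-1 was at 0.87 and 0.83 in continued and at 0.59 in both withdrawn arrays, which is 0.27 higher and missed the threshold (adjusted p = 0.14), while the partner's 0.42 passed it (adjusted p = 0.011). The difference between these partners was not tested.

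The probes outside the list whose 10 group means followed the members' median most closely were Z00000581-1 (r = 0.996), Z00034067-1 (r = 0.995) and Z00057372-1 (r = 0.989), each over 10 groups. Z00000581-1 belongs to the comparison list, with a day 4 difference of 0.315, just past the limit. It was at -0.25 and -0.13 on day 0, at 1.261 and 1.254 on day 3 withdrawn and at 1.504 and 1.517 on day 3 continued. Z00034067-1 followed the same course at a smaller size, from 0.28 and 0.32 on day 0 to 0.72 and 0.80 on day 3 withdrawn, and its day 1 difference of 0.505 and day 2 difference of 0.454 kept it out. Z00057372-1 moved by only 0.16 from day 0 to day 3 withdrawn (adjusted p = 0.089).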

How the data were processed

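RNA of 1 ES cell clone was measured on 20 two-colour 60-base Agilent arrays, 2 for each of 10 groups taken from the sample titles. Intensity values are the deposited scanner output; per the file headers they were extracted with Agilent Feature Extraction 9.5.1.1, whose processed signals, background-subtracted and dye-normalised, chose the members. The authors' deposited value table, an alternative here, was found to hold log10 of the sample channel alone (correlation with the green processed signal 0.994 to 0.997, column medians 2.30 to 2.34) and was turned to log2; its scaling is not stated in these sources. Mean signals were corrected for median local background with normexp (offset 50; 6 spots with a background over 10 times the array median got that median), normalised by loess within arrays and averaged per probe, with limma 3.58.1 in R 4.3.3. Probes well above background on both arrays of any group, 29414, were fitted over all 20 arrays (10 residual degrees of freedom), with Benjamini-Hochberg adjustment over all of them; 5 differences were tested. Named probes are the 6 members with the largest day 1 difference, the 8 highest and 4 lowest on day 3 withdrawn against day 0, those called on day 3, those at the limits and the 3 most alike outside the list. Members and lists were chosen with earlier results of these data known. The fit was tested on simulated data. The number of arrays limits the precision.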

Additional observations from a re-analysis of the deposited data

How the results depend on the processing

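Counts are of members called, and the choice of members was repeated where a setting changes it. A setting can also change how many of all probes are called, and those shares are not given here. A changed count is therefore not a result about the members alone. Continued above withdrawn on day 3 (3 of 165) became 5 without background correction, 0 with the 6 outlying background spots left in, 0 with processed signals and 5 in the sample channel alone. It was 5 of 133 on probes well above background on all arrays, and 1 of 99 and 5 of 243 with a day 4 limit of 0.2 and 0.4. Above day 0 on day 2 withdrawn (143) became 74 of 75 members when chosen on the normalised scale, 229 of 272 with a rise limit of 0.5 and 85 of 99 with a day 4 limit of 0.2. For day 3 withdrawn (146) these were 74, 232 and 85, and for day 3 continued (150) 75, 239 and 87. With the 6 outlying background spots left in, 113, 115 and 127 of the same 165 members were above day 0 in these 3 differences. Lower than day 0, against 0, was 1 on day 2 withdrawn with processed signals and 1 with the authors' value table, 1 on day 3 withdrawn with median centring and 1 in the sample channel, and 2 on day 3 continued with median centring; a rise limit of 0.5 gave 3 on both. Rises from day 2 to day 3 withdrawn (45 of 165) became 18 with those background spots left in and 28 with the authors' table, which lists 109 of the members. On the normalised choice they were 19 of 75, and with a rise limit of 0.5 they were 69 of 272. With a day 4 limit of 0.2 and 0.4 they were 28 of 99 and 69 of 243. Falls (32 of 165) became 11 with the background spots left in, 18 with median centring and 54 of 272 with a rise limit of 0.5. The median change between those days, 0.06, turned to -0.034 on the normalised choice and to -0.0064 with a day 4 limit of 0.2, and Z00043655-1 on day 3 withdrawn against day 0 turned to 0.22 in the sample channel but was -0.26 with median centring.

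Without single arrays, the continued against withdrawn count ran from 0 to 2, those above day 0 from 128 to 141, 134 to 144 and 145 to 147, those below day 0 from 0 to 1, 0 to 0 and 0 to 1, rises from 39 to 42 and falls from 16 to 26. Fitted on only the 8 arrays the selection did not use, the counts were 3, 146, 146, 149, 50 and 35. With the replicate number as a block, the counts were 4, 145, 146, 151, 46 and 32. The numbers do not pair the arrays: same-numbered deviations correlated at -0.29 to 0.28 over 45 pairs of groups. Slide as a random block could not be fitted. Dim probes limit the rest: 11 members were not well above background on day 0.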
